A study of Homo sapiens with 9 samples.

Results

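Wnt signalling was followed through 40 genes in U251 cells, an established human glioblastoma line, after knockdown of MSI1 (Musashi1), an RNA-binding protein of neural stem cells that binds messenger RNAs. The 40 genes were a given list of Wnt ligands, receptors, cytoplasmic transducers, inhibitors and nuclear effectors, looked up by symbol among the 20848 genes of the gene count tables. All 40 were found. The filter on low counts left 35 of them among 13856 genes tested. RNA-seq was available for 3 MSI1 knockdown samples and 3 control samples titled WT, and MSI1 iCLIP for 3 further samples of cells titled WT. The method of the knockdown and the treatment of the control cells are missing from the labels, and all samples are of this single cell line. iCLIP maps the nucleotides that ultraviolet light has crosslinked to a protein, here with an antibody against MSI1. The study asked how expression and splicing respond to loss of MSI1 and how that relates to where it binds.

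Secreted Wnt proteins bind frizzled receptors together with the co-receptors LRP5 and LRP6. In the canonical branch this stops a complex of AXIN, APC and GSK3B from marking beta-catenin for destruction, so that beta-catenin enters the nucleus and switches on genes with the TCF and LEF factors. Other branches signal without beta-catenin, through dishevelled and the planar cell polarity proteins, and bear on cell shape and movement. Both branches are known from glioblastoma, where they have been tied to stem-like growth and invasion.

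MSI1 was lower in all 3 knockdown libraries. It stood at 3.15, 5.11 and 2.26 CPM (counts per 1000000 reads, scaled by edgeR's TMM factors) in knockdown samples 1, 2 and 3, against 16.1, 17.7 and 7.59 CPM in control samples 1, 2 and 3. The groups did not overlap, and control 3 held the lowest control value. The log2 fold change was −1.97 (SE 0.42, adjusted p = 0.0699), which missed the threshold of 0.05. It passed with the replicate number as a block (adjusted p = 0.00279), with DESeq2 (adjusted p = 8.78e-05) and without control 3 (adjusted p = 0.000372). Libraries held 32919299 to 47277016 gene counts. Control 3 stood apart, with a score of 80.6 on the first principal component (62.5% of the variance). First exons took a median 0.516% of a gene's exon counts there, against 1.09% to 1.64% in the other 5 libraries. Control 3 was also the lowest library for 14 of the 35 tested Wnt genes and the highest for 10, so the calls are given with and without it.

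Markers of the cell line and of other cell types were read in the same libraries. The 12 glioma and astroglial markers summed to 6505 to 7520 CPM in knockdown samples and 6901 to 8085 CPM in control samples, most of it VIM, CD44 and NES, while AQP4 and ALDH1L1 were near 0 and OLIG2 was at 0. Within that list SOX2, a stem cell factor, fell to 89.9 ± 5.001 CPM in the knockdown, against 152 ± 15.02 CPM in the control (log2 fold change −0.76, adjusted p = 0.0432). FABP7 (log2 fold change 0.75, adjusted p = 0.0756) and SLC1A3 (0.83, adjusted p = 0.0756) were above the controls in each knockdown library, and with the block both, and SOX9, were higher. Fibroblast markers summed to 1116 to 1602 CPM in knockdown samples and 1001 to 1434 CPM in control samples, nearly all COL1A2, with DCN near 0. COL1A1 (log2 fold change 1.37, adjusted p = 0.135, and 0.0155 with the block) and PDGFRB (0.90, adjusted p = 0.194, and 0.0257 with the block) were above the controls in each knockdown library. Neuron markers summed to 63.5 to 69.6 CPM in knockdown samples and 61.3 to 67.1 CPM in control samples, and of these SNAP25, at 3.94 ± 0.626 CPM in the knockdown and 1.93 ± 0.765 CPM in the control, was higher with the block (adjusted p = 0.0291, against 0.194 without it). Epithelial markers summed to 369 to 503 CPM in knockdown samples and 298 to 481 CPM in control samples, nearly all KRT8 and KRT18, with EPCAM and CDH1 near 0. Sums for leukocytes, endothelium and oligodendrocytes were at most 2.28 CPM in each library. The part of these differences in the Wnt results was not tested.

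The 3 Wnt genes that passed the test all fell: the ligands WNT7B and WNT5A and the nuclear factor LEF1. None rose. Among all genes tested 0.902% were lower and 0.772% higher by the same rule, 1.67% in all. Because same-numbered samples deviated together, the test was also run with the replicate number as a block. Control 1, however, correlated more with knockdown 2 (0.494) than with knockdown 1 (0.318). The blocked test called 15 of the 35, 5 higher and 10 lower, where 7.04% of all genes were higher and 10.3% lower (17.3% in all). Without control 3 the number was 7, 2 higher and 5 lower, with 4.47% of all genes higher and 2.84% lower (7.31% in all). FZD6, FZD5, DVL3 and SFRP4, called with the block, were also called without control 3, and the other 8 genes called only with the block were not. DESeq2 called 1 higher and 4 lower, with 3.19% of all genes higher and 2.57% lower (5.76% in all). The median log2 fold change of the 35 was −0.11, with 14 above 0 and 21 below, against −0.04 over all genes tested. The 2 groups of libraries did not overlap for 15 of the 35, with the knockdown above in 4 and below in 11, and for 22.8% of all genes (8.73% above and 14.1% below).

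**Figure D1:**
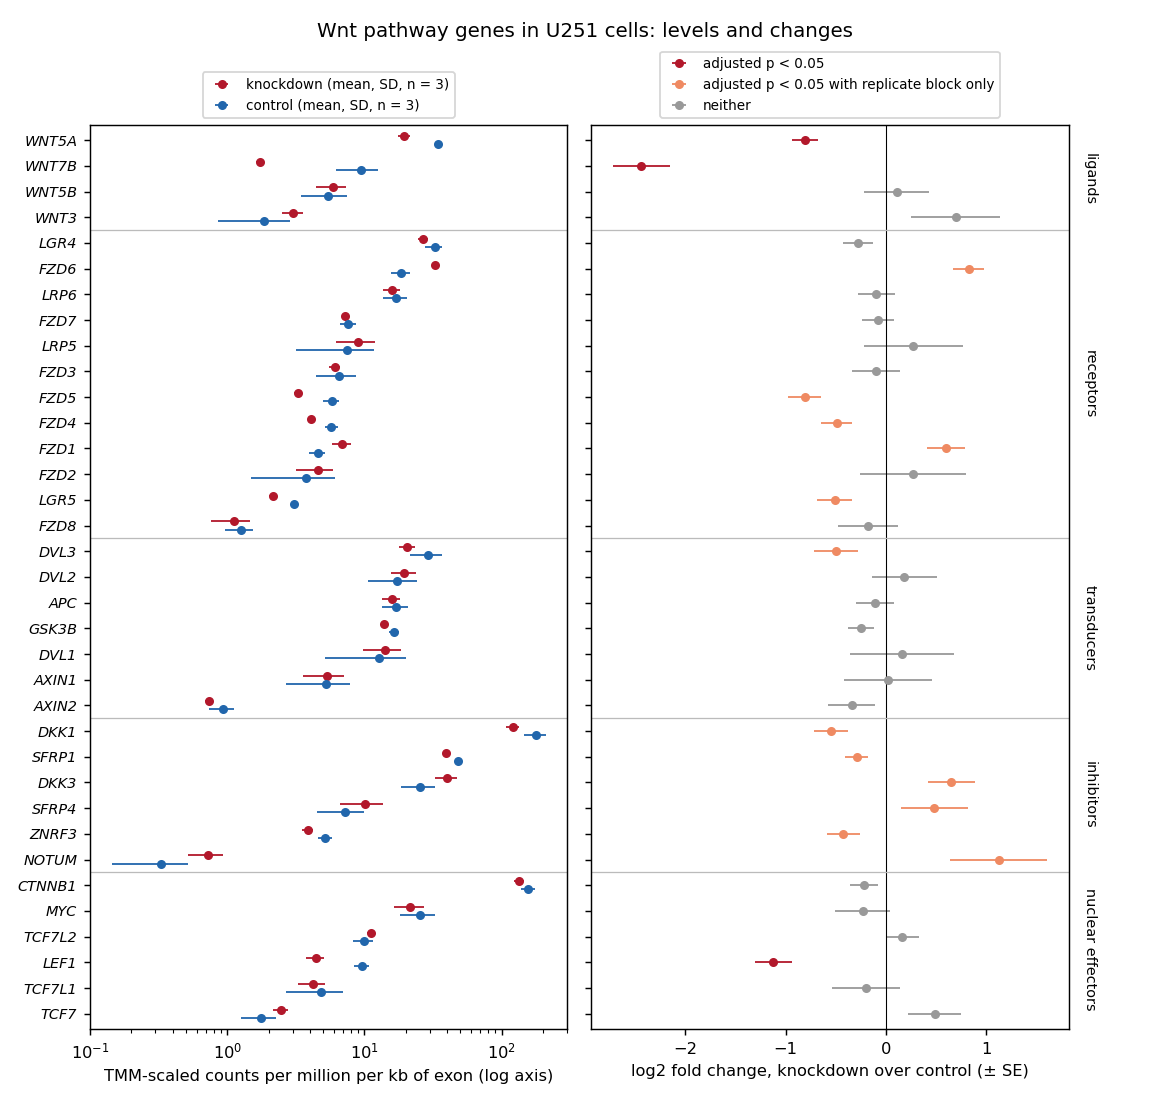
Levels (left; TMM-scaled CPM per kilobase of exon, log axis, mean and SD over 3 libraries, knockdown red and control blue) and log2 fold changes of knockdown over control (right; with SE) for the 35 tested Wnt genes, by role. WNT7B (−2.44), LEF1 (−1.12) and WNT5A (−0.81) passed the test in either design, and the 12 genes in orange passed only with the replicate block.

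WNT7B, a ligand best known for canonical signalling, fell the most of the 35 genes. It is encoded on chromosome 22 (44694914 to 44751672, minus strand, hg18, as are all gene coordinates here). WNT7B reached 7.28, 6.51 and 6.51 CPM in knockdown samples 1, 2 and 3, against 40.4, 46.7 and 22.9 CPM in control samples 1, 2 and 3. The 3 knockdown values were nearly equal and lay below the lowest control, which was control 3. This gave 6.77 ± 0.447 CPM in the knockdown and 36.7 ± 12.3 CPM in the control (SD, n = 3 each) and a log2 fold change of −2.44 (SE 0.28, adjusted p = 0.0147). It was −2.62 without control 3 (adjusted p = 3.16e-06), while leaving out any other library put the adjusted p at 0.0721 to 0.124. All 4 WNT7B exons were lower in every knockdown library than in every control library. Whether fewer cells made the transcript or each cell made less cannot be told apart in bulk samples.

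WNT5A, which mostly signals without beta-catenin and promotes cell movement in many tumours, fell less steeply (chromosome 3, 55474783 to 55496371, minus strand). It had 126, 102 and 113 CPM in knockdown samples 1, 2 and 3, against 193, 194 and 211 CPM in control samples 1, 2 and 3. The groups were well apart, and control 3 was here the highest library. The log2 fold change was −0.81 (SE 0.13, adjusted p = 0.0362). Without control 3 it was −0.71 (adjusted p = 0.0108), leaving out any other library gave an adjusted p of 0.127 to 0.212, and with the size factors of DESeq2 it was 0.0555. Each of the 5 WNT5A exons had a lower mean in the knockdown, and for 3 of them the groups did not overlap.

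The other measured ligands did not pass the test. WNT3, a canonical ligand, had 4.44, 5.38 and 3.80 CPM in knockdown samples, against 3.56, 3.75 and 1.06 CPM in control samples (log2 fold change 0.69, adjusted p = 0.544). Its groups were separated only narrowly, and control 3 was far below the rest. WNT5B, a close relative of WNT5A, was at 13.6 ± 3.34 CPM in the knockdown and 12.6 ± 4.62 CPM in the control. WNT10B, a canonical ligand, was below the filter, with 3, 4 and 4 reads in knockdown samples and 9, 8 and 10 reads in control samples, so that its groups did not overlap either.

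Compared per length, WNT5A remained the leading ligand in both groups. It made up 64.7 ± 5.27% of the summed ligand level in the knockdown and 67.5 ± 9.25% in the control. WNT7B took 5.75 ± 0.203% of that sum in the knockdown and 18.2 ± 4.96% in the control, so that it stood above WNT5B in each control library and below it in each knockdown library. The sum of the 5 ligands was 30.2 ± 2.71 in the knockdown and 50.9 ± 4.15 in the control, in TMM-scaled CPM per kilobase (SD, n = 3 each). All 3 knockdown sums lay below all 3 control sums.

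**Figure D2:**
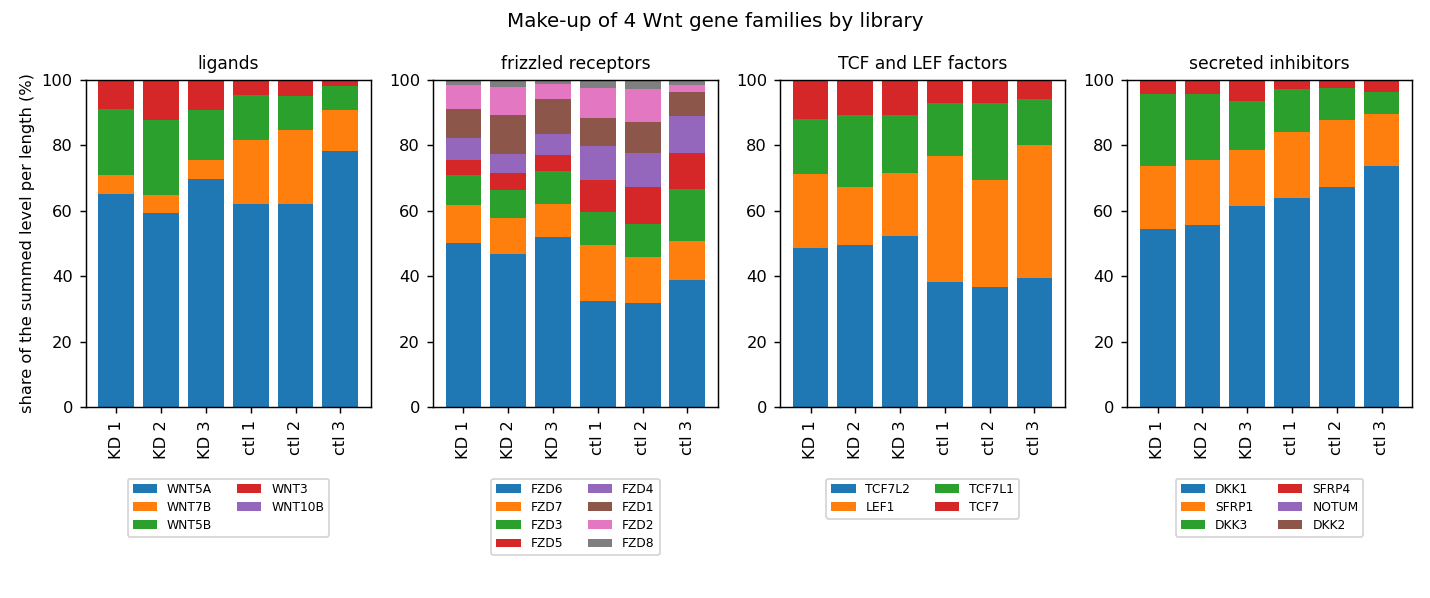
Share of each gene in the summed level of its family (percent; TMM-scaled CPM per kilobase), stacked for each library with the knockdown libraries left of the control libraries. WNT7B made up 5.75% of the ligand sum in the knockdown and 18.2% in the control, FZD6 49.7% and 34.4% of the frizzled sum, and LEF1 19.8% and 37.2% of the sum of TCF and LEF factors.

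None of the 12 receptors and co-receptors passed the unblocked test, and 5 passed it with the block, FZD6 and FZD1 higher and FZD5, FZD4 and LGR5 lower, where 17.3% of all genes passed. FZD6, a frizzled receptor that acts in planar cell polarity in mouse, had 127, 124 and 136 CPM in knockdown samples 1, 2 and 3, against 63.9, 68.9 and 85.9 CPM in control samples 1, 2 and 3. Each knockdown library was well above each control library, and control 3 came nearest. Its log2 fold change was 0.82 (SE 0.15, adjusted p = 0.0517), with an adjusted p of 0.00437 with the block and 0.00117 without control 3, where the log2 fold change was 1.02. FZD1, which can pass on canonical signals, had 24.8, 34.5 and 31.0 CPM in knockdown samples, against 18.8, 22.9 and 17.8 CPM in control samples. The groups did not overlap, although knockdown 1 was close to control 2 (log2 fold change 0.60, adjusted p = 0.185, and 0.0239 with the block).

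FZD5, a receptor for canonical ligands and for WNT5A, had 20.1, 22.9 and 21.6 CPM in knockdown samples, against 32.0, 40.9 and 40.3 CPM in control samples. The groups were clearly separated, with a log2 fold change of −0.81 (SE 0.16, adjusted p = 0.0644). The adjusted p was 0.00681 with the block and 0.0254 without control 3. FZD4, the receptor of norrin in retinal vessels, had 31.4, 28.1 and 30.9 CPM in knockdown samples, against 37.9, 42.2 and 47.1 CPM in control samples. It too was lower in each knockdown library (log2 fold change −0.49, adjusted p = 0.170, and 0.0337 with the block). LGR5, an R-spondin receptor and a marker of intestinal stem cells, had 6.39, 5.80 and 6.29 CPM in knockdown samples, against 8.60, 8.61 and 9.15 CPM in control samples. Values within each group were tight and the groups did not overlap (log2 fold change −0.51, adjusted p = 0.198, and 0.0489 with the block). The blocked call of LGR5 was lost with the size factors of DESeq2 (adjusted p = 0.0670).

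Among the other receptors, LGR4, the related R-spondin receptor, was the most abundant per length, at 26.7 ± 2.09 in the knockdown and 32.4 ± 4.61 in the control. Its log2 fold change was −0.28 (adjusted p = 0.446) with groups that did not overlap. The co-receptor LRP6 stood at 161 ± 23.3 CPM in the knockdown and 172 ± 34.5 CPM in the control. LRP5, the other co-receptor, had 45.4, 61.1 and 32.3 CPM in knockdown samples, against 47.2, 54.5 and 13.1 CPM in control samples, with control 3 far below all others. FZD2, FZD3, FZD7 and FZD8 had log2 fold changes between −0.18 and 0.27, and their groups overlapped. Without control 3 the sign turned for FZD2 (to −0.10), FZD3 (to 0.25), LRP5 (to −0.08) and LRP6 (to 0.14).

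Together the 8 frizzled genes summed to 66.0 ± 1.39 per length in the knockdown and 53.8 ± 3.21 in the control. FZD6 made up 49.7 ± 2.53% of that sum in the knockdown and 34.4 ± 3.92% in the control, and led the family in each library. FZD5 took 4.97 ± 0.222% in the knockdown and 10.7 ± 0.834% in the control, and FZD4 took 6.19 ± 0.464% and 10.7 ± 0.608% in the same groups.

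Among the 7 cytoplasmic transducers none passed the unblocked test, and log2 fold changes ran from −0.50 to 0.18. DVL3, a dishevelled protein that relays the signal from frizzled receptors, had 113, 111 and 87.9 CPM in knockdown samples, against 176, 161 and 104 CPM in control samples. The groups overlapped because control 3 lay below knockdown samples 1 and 2, yet each knockdown library was below the control of its own number. Its log2 fold change was −0.50 (adjusted p = 0.343), and it was lower with the block (adjusted p = 0.0264) and without control 3 (−0.64, adjusted p = 0.0221). The other dishevelled genes, DVL1 and DVL2, had log2 fold changes of 0.16 and 0.18, which were −0.21 and −0.05 without control 3.

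No gene of the destruction complex passed in either design. GSK3B, the kinase that marks beta-catenin, had 98.0, 93.5 and 104 CPM in knockdown samples, against 108, 117 and 127 CPM in control samples. These ranges were adjacent without overlapping (log2 fold change −0.25, adjusted p = 0.431, and 0.0816 with the block). APC, a scaffold of the complex, stood at 177 ± 26.0 CPM in the knockdown and 191 ± 41.7 CPM in the control. AXIN1, its limiting scaffold, stood at 18.4 ± 6.10 and 18.1 ± 8.87 CPM in the same groups, and the scatter among libraries exceeded the difference for both genes. AXIN2, a scaffold and a widely used readout of canonical signalling, was low per length, at 0.733 ± 0.0388 in the knockdown and 0.929 ± 0.197 in the control. Its groups overlapped, since control 3 lay among the knockdown values (log2 fold change −0.34, adjusted p = 0.571).

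Inhibitors were split. None of the 6 tested inhibitors passed the unblocked test, and all 6 passed it with the block, DKK3, SFRP4 and NOTUM higher and DKK1, SFRP1 and ZNRF3 lower, where 17.3% of all genes passed. With the block and the size factors of DESeq2 the calls of SFRP1 (adjusted p = 0.0594) and ZNRF3 (adjusted p = 0.0527) were lost and the other 4 were made. DKK1, a secreted protein that blocks LRP5 and LRP6 and is itself a target of beta-catenin, had 212, 195 and 244 CPM in knockdown samples 1, 2 and 3, against 292, 278 and 386 CPM in control samples 1, 2 and 3. Replicate 3 was the highest of each group, and the groups did not overlap. Its log2 fold change was −0.55 (SE 0.17, adjusted p = 0.169, and 0.0077 with the block) and −0.33 without control 3 (adjusted p = 0.252). SFRP1, a secreted protein that can bind Wnt ligands, had 186, 171 and 169 CPM in knockdown samples, against 229, 212 and 204 CPM in control samples. Each knockdown library was below each control library (log2 fold change −0.29, adjusted p = 0.294, and 0.0324 with the block). ZNRF3, a membrane ubiquitin ligase that removes frizzled receptors, had 26.5, 26.7 and 22.6 CPM in knockdown samples, against 37.9, 34.0 and 29.9 CPM in control samples. It was likewise without overlap (log2 fold change −0.43, adjusted p = 0.265, and 0.0362 with the block).

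The 3 inhibitors that were higher with the block were less evenly separated. DKK3, a divergent member of the DKK family whose part in Wnt signalling is less settled, had 143, 118 and 98.2 CPM in knockdown samples 1, 2 and 3, against 101, 67.8 and 60.3 CPM in control samples 1, 2 and 3. Knockdown 3 lay below control 1, but in each numbered pair the knockdown was higher (log2 fold change 0.65, adjusted p = 0.239, and 0.00741 with the block). SFRP4, another secreted frizzled-related protein, had 25.8, 22.5 and 41.7 CPM in knockdown samples, against 18.7, 15.2 and 30.6 CPM in control samples. The groups overlapped because replicate 3 was high in both (log2 fold change 0.48, adjusted p = 0.585, and 0.0249 with the block). NOTUM, an enzyme that strips the lipid from Wnt ligands, was near the detection limit, with 1.72, 2.02 and 1.11 CPM in knockdown samples, against 1.08, 0.823 and 0.280 CPM in control samples. Knockdown 3 and control 1 were almost equal (log2 fold change 1.12, adjusted p = 0.325, and 0.0472 with the block).

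The remaining 4 inhibitors were below the filter. RNF43, the ligase related to ZNRF3, had at most 2 reads in any library, and NKD2, which binds dishevelled, had 0 in all 6. NKD1, its relative, had 6, 13 and 5 reads in knockdown samples and 3, 6 and 2 reads in control samples. DKK2 had 4, 7 and 6 reads in knockdown samples and 5, 4 and 2 reads in control samples. Per length DKK1 was the leading inhibitor, at 120 ± 13.8 in the knockdown and 177 ± 32.3 in the control, or 57.1 ± 3.72% and 68.2 ± 5.02% of the summed level of secreted inhibitors. DKK3 made up 19.1 ± 3.72% of that sum in the knockdown and 10.03 ± 3.17% in the control.

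LEF1 was the only nuclear effector that passed the test. It is the member of the TCF and LEF family known mainly as an activator, and its own gene is a common target of beta-catenin (chromosome 4, 109188150 to 109309561, minus strand). LEF1 had 21.3, 17.5 and 15.8 CPM in knockdown samples 1, 2 and 3, against 44.0, 40.4 and 34.2 CPM in control samples 1, 2 and 3. The highest knockdown library was well below the lowest control library. The log2 fold change was −1.12 (SE 0.18, adjusted p = 0.0372, and 0.00276 with the block). Without control 3 it was −1.15 (adjusted p = 0.00128), and leaving out any other library put the adjusted p at 0.137 to 0.197. All 13 LEF1 exons had a lower mean in the knockdown, and for 11 of them the groups did not overlap. Of its 4128 exonic bases 279 are shared with LOC641518 on the opposite strand, and the strand setting of the counting is not given, but that gene had at most 9 reads in any library.

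The other nuclear effectors did not pass in either design. CTNNB1, which encodes beta-catenin, was the second most abundant of the 40 genes per length in the control and the most abundant in the knockdown, at 134 ± 11.6 in the knockdown and 156 ± 18.8 in the control. It had 478, 470 and 548 CPM in knockdown samples, against 535, 546 and 661 CPM in control samples, with each knockdown library below the control of its number (log2 fold change −0.22, adjusted p = 0.537, and 0.0700 with the block). TCF7L2, the main TCF factor of many epithelia, stood at 47.6 ± 2.93 CPM in the knockdown and 42.5 ± 6.88 CPM in the control. For TCF7, the founding TCF of T cells, the log2 fold change was 0.48 (adjusted p = 0.453). TCF7L1, mostly a repressor, had −0.20, and MYC, a growth regulator and classical target of the pathway, had −0.23 (adjusted p = 0.782). For TCF7L2, TCF7, TCF7L1 and MYC the groups overlapped. LEF1 made up 19.8 ± 2.56% of the summed per-length level of the 4 TCF and LEF factors in the knockdown and 37.2 ± 4.21% in the control, and TCF7L2 made up 50.1 ± 1.99% and 38.2 ± 1.34% in the same groups. LEF1 and TCF7L2 thus had near-equal shares in the control, while in each knockdown library TCF7L2 was far ahead.

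Among 12 genes known as targets of beta-catenin and TCF factors in many cells, 10 were tested. LEF1 alone was called, where 1.67% of all genes were called. With the block 4 were lower (LEF1, DKK1, LGR5 and ZNRF3) and 1 higher (NOTUM), where 10.3% of all genes were lower and 7.04% higher. LGR5 and ZNRF3 were no longer called once the blocked fit used the size factors of DESeq2. SP5 and CCND1 are the 2 targets outside the 40 genes. Because promoters of such targets are known to carry TCF words, RefSeq promoters of the called genes WNT5A and LEF1 are shown. The DKK1 promoter was added because it held a match, so its match follows from this choice. Uncalled targets without a match are not shown. Each printed promoter runs from 250 bases before to 50 after a listed start (build GRCh38.p14, 5′ to 3′, capitals marking a match to a searched word). Whether the listed LEF1 start is the outermost start of the gene as counted was not checked. No other LEF1 start was searched. WNT5A lies at chr3:55487257-55487556 and LEF1 at chr4:108166252-108166551, both on the minus strand, and DKK1 at chr10:52314031-52314330 on the plus strand.
WNT5A: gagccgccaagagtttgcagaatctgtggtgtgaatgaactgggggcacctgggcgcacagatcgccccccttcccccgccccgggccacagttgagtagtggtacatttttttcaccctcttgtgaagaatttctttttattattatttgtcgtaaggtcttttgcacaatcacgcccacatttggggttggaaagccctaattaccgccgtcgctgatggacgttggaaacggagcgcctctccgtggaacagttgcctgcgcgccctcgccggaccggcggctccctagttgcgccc
LEF1: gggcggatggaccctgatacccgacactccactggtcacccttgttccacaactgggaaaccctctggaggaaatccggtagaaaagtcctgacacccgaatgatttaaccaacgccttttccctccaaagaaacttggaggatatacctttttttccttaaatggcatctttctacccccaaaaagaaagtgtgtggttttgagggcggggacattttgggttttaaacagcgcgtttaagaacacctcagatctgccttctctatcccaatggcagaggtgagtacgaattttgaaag
DKK1: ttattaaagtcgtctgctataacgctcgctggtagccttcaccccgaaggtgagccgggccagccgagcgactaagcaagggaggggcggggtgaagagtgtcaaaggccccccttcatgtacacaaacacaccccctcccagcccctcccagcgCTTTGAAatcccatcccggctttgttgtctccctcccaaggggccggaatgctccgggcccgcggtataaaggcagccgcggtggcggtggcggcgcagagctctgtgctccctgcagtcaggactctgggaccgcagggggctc
The words searched were CTTTGAT and CTTTGAA on both strands. Neither is in the WNT5A or LEF1 window, nor in that of the second WNT5A start in the table (chr3:55481349-55481648, minus strand, not printed), and DKK1 holds CTTTGAA from base 156 of its window. For 24 of the 40 genes with a listed promoter of this length, the first listed promoter of each was counted. DKK1 was the 1 with a match (4.17%). Among all 35116 promoters of this length, where a gene can have more than 1, 6.86% had a match. The 2 shares thus count unlike units, genes and promoters. WNT7B was not among these 24.

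Of 80 other Wnt pathway genes that were measured, 56 were tested and 1 fell, where 0.902% of all genes fell and 1.67% were called in all. This was VANGL1, a membrane protein of planar cell polarity, with 120, 104 and 110 CPM in knockdown samples, against 183, 172 and 184 CPM in control samples. The groups were far apart (log2 fold change −0.69, SE 0.12, adjusted p = 0.0436), although the adjusted p was 0.0646 with the size factors of DESeq2 and 0.135 to 0.253 when any library but control 3 was left out. With the block 5 of the 56 were higher and 7 lower, where 7.04% of all genes were higher and 10.3% lower. ROR1, a receptor of WNT5A, had 4.86, 4.72 and 5.11 CPM in knockdown samples, against 1.59, 2.60 and 1.93 CPM in control samples. It was higher in every knockdown library (log2 fold change 1.26, adjusted p = 0.0558, and 0.0128 with the block). For VANGL2, the paralogue of VANGL1, the log2 fold change was 0.96 (adjusted p = 0.0738, and 0.00747 with the block). PRICKLE2, another polarity protein, had −0.64 (adjusted p = 0.0756, and 0.00924 with the block).

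Exon use within the Wnt genes did not pass the test anywhere. With an exon compared to the rest of its gene, edgeR's diffSpliceDGE called 0 of 294 exons in 30 Wnt genes, with 3 at an unadjusted p below 0.05. Among all 123109 exons tested 0.0% were called and 0.214% had an unadjusted p below 0.05. With the block the exons called were 0 in the Wnt genes and 10 in all. The lowest p belonged to exon 9 of the 18 of LGR5 (chromosome 12, 70246451 to 70246522, plus strand), a 72-nucleotide exon. It made up 4.62%, 5.86% and 5.14% of the LGR5 exon counts in knockdown samples, against 1.83%, 2.64% and 2.26% in control samples, and the groups did not overlap (unadjusted p in the exon model 0.0201, adjusted p = 1). The neighbouring exon 8, also of 72 nucleotides, made up 3.59%, 5.56% and 4.63% in knockdown samples, against 1.65%, 2.03% and 2.26% in control samples. These shares rest on few reads, since LGR5 had under 10 CPM in each library. The third was exon 1 of the 15 of CTNNB1, which took 1.38%, 2.23% and 1.29% in knockdown samples, against 1.47%, 1.45% and 0.381% in control samples. Here control 3 alone was low, as it was for first exons in general.

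MSI1 iCLIP sites were found in at least 1 list in 39 of the 40 genes. Such sites were common over all genes, and the same share for them was not counted. In list 1 alone an exonic site was present in 33 of the 35 tested Wnt genes (94.3%), against 79.0% of all tested genes. This share and those below for sites in all 3 lists were not adjusted for expression level or exonic length. The 3 lists, all from control cells and with no knockdown or antibody-free list among the samples used here, held 1746795, 145718 and 208722 single-nucleotide sites. A site at the same nucleotide and strand in all 3 lists was present in 5 of the 35 tested genes, against 6.05% of all tested genes, and in an exon in 3 of them, against 2.35%. The exonic ones were in the last exons of CTNNB1 (chromosome 3, position 41256710, exon 15 of 15), DKK1 (chromosome 10, position 53747094, exon 4 of 4) and SFRP1 (chromosome 8, position 41238687, exon 3 of 3). They lay 233, 329 and 53 nucleotides from the end of CTNNB1, DKK1 and SFRP1. FZD3 held 1 shared site in an intron and TCF7L2 held 2. None of these 6 positions had an authors' p-value of at most 0.05 in all 3 lists, and the 3 exonic ones had it in no list. In lists 1, 2 and 3 the authors' p-value was 0.863, 0.466 and 0.153 for CTNNB1 and 0.382, 0.0626 and 0.331 for DKK1. For SFRP1 it was 0.0617, 0.438 and 0.228. Only FZD3 in list 1 (0.0368) and 1 site of TCF7L2 in list 3 (0.049) were below 0.05.

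SFRP1 stood out by number. It held 336, 40 and 79 exonic sites in lists 1, 2 and 3, and only 0.361%, 0.411% and 0.404% of tested genes held as many or more in the same lists. In list 1, 326 of the 336 were in its last exon, at 92.3 per kilobase. Per unit of control expression it had 1.56 exonic sites per CPM in list 1. That value was reached by 3.67% of the 12293 genes with at least 1 CPM, so its rank was lower once its level was counted. The list 1 values of CTNNB1 and DKK1, 0.134 and 0.141, were reached by 56.3% and 54.9% of those genes. In lists 2 and 3 the shares were 30.1% and 39.0% for CTNNB1 and 13.9% and 32.7% for DKK1, and 2.79% and 2.4% for SFRP1. TCF7L2 ranked near SFRP1 by this ratio. It had 1.51, 0.188 and 0.212 exonic sites per CPM in lists 1, 2 and 3, reached by 3.9%, 2.68% and 5.81% of those genes. By count TCF7L2 had the most sites of the 40 genes, with 2808, 110 and 171 in the 3 lists, of which 64, 8 and 9 were exonic. LGR4 followed in list 1 with 746 sites, of which 109 were exonic, and GSK3B with 622, of which 43 were exonic. These genes are long, and their sites were mostly in introns.

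Sites of the 3 genes with shared exonic positions were placed differently along their last exons. In DKK1, 33 of 44 last-exon sites of list 1 lay within 500 nucleotides of the end of the gene, as did 15 of 17 in list 2 and 12 of 13 in list 3. The last exon of CTNNB1 was alike, with 48 of 61, 11 of 11 and 13 of 15 sites in the same window. In SFRP1 the sites were spread over its 3532-nucleotide last exon, with a median of 1602.5, 1063.5 and 1255.5 nucleotides from the end in the 3 lists. DKK1 and CTNNB1 have last exons of 1104 and 1315 nucleotides, so the window covers a larger part of them.

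**Figure D3:**
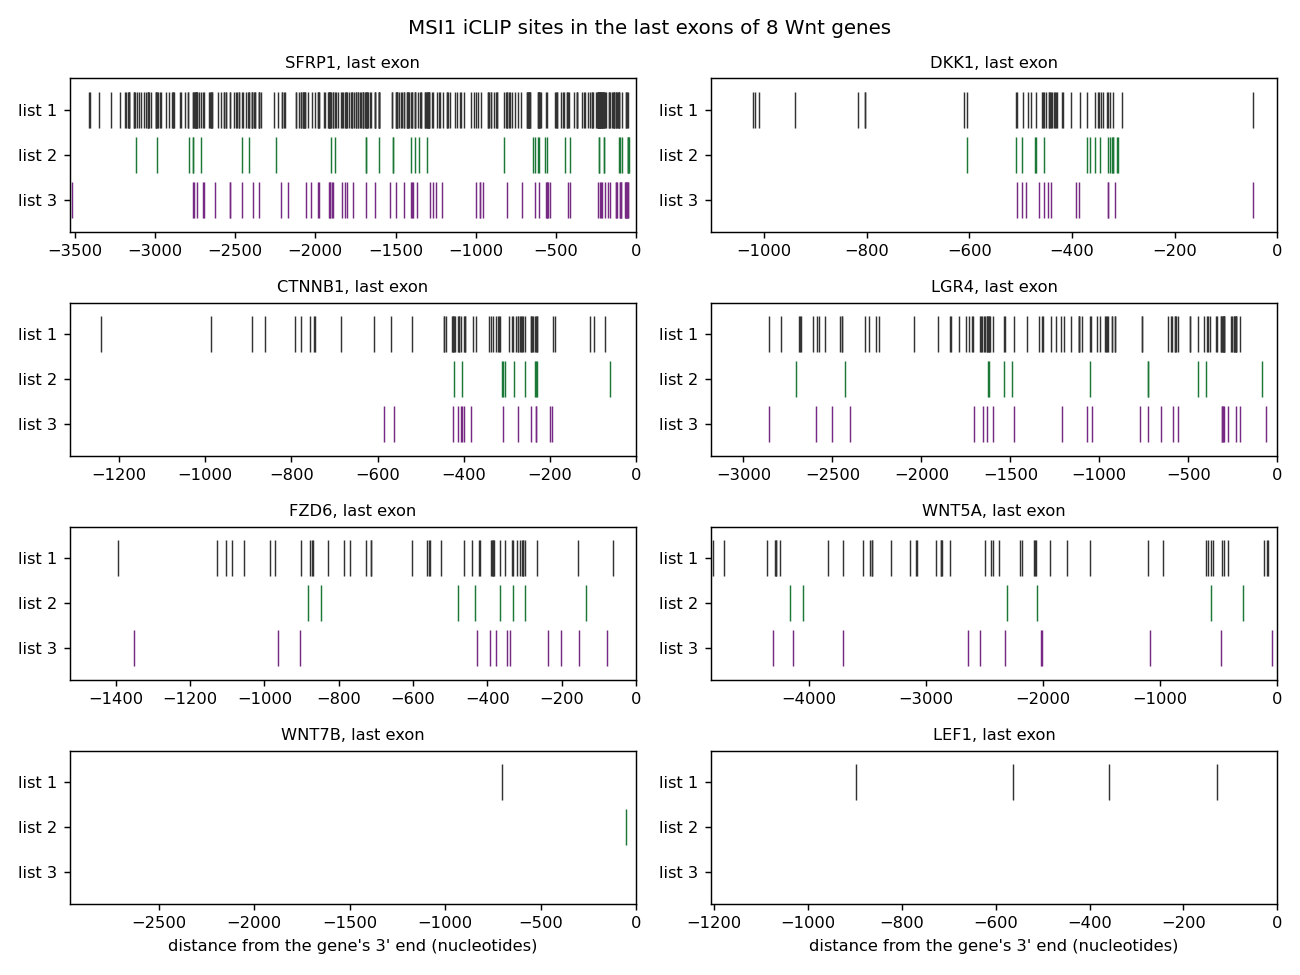
MSI1 iCLIP sites in the last exons of 8 Wnt genes, by distance from the end of the gene in nucleotides, in lists 1, 2 and 3 of control cells. Sites of DKK1 and CTNNB1 gathered near the end, where 33 of 44 and 48 of 61 sites of list 1 lay within 500 nucleotides, while those of SFRP1 (326 in list 1) ran along the whole exon.

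Of the 3 genes that fell, WNT5A carried many exonic sites by count and WNT7B and LEF1 few. WNT5A had 47, 6 and 11 in lists 1, 2 and 3, of which 46, 6 and 11 were in its last exon, and 7.47%, 6.91% and 7.14% of tested genes had as many or more. WNT7B had 1, 1 and 0, and LEF1 had 8, 0 and 0, although LEF1 held 268 sites in list 1 when introns were included. Per CPM of control expression, list 1 gave 0.236 exonic sites for WNT5A, 0.202 for LEF1 and 0.0273 for WNT7B. These values were reached by 38.9%, 43.9% and 82.7% of genes with at least 1 CPM, so WNT5A and LEF1 were close in list 1. The order differed in the other lists. In list 2 WNT5A (0.0301, reached by 22.7%) was close to WNT7B (0.0273, reached by 24.4%) and LEF1 was at 0. In list 3 WNT5A had 0.0552 (reached by 26.5%), with WNT7B and LEF1 at 0. Of the genes called only with the block, FZD6 had 54, 8 and 13 exonic sites, DKK3 had 59, 6 and 14, and NOTUM had 0 in each list. Exonic sites in all 3 lists were found in 19 of the 35 tested Wnt genes (54.3%), against 31.5% of all tested genes. Over the genes with at least 1 CPM, the median number of exonic sites per CPM in list 1 was 0.261 for 34 Wnt genes and 0.166 for all. The part of expression level in these counts was not tested beyond this ratio. Neither the counts nor the ratio were scaled by exonic length, and the part of length was not tested.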

How the data were processed

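RNA-seq of 3 MSI1 knockdown and 3 control samples of U251 cells and MSI1 iCLIP of 3 control samples were used, grouped by sample titles. The authors deposited raw counts per gene and per exon, and iCLIP lists with a p-value per nucleotide, which were not limited to low values. The protocols in the labels describe iCLIP only, also for RNA-seq, and state that biological replicates were combined for sequencing. No label says that replicates are separate cultures, so a p-value covers only the spread among these libraries, possibly a technical one. Coordinates follow hg18, the build named in the submitters' processing notes. The sources used here do not name the aligner, counting tool, strand setting or site caller. No reference of that build was used, so no sequence at iCLIP sites is printed.

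Gene counts went through edgeR 4.0.16 and its quasi-likelihood test (R 4.3.3; TMM, filterByExpr, group as the only term, 4 residual degrees of freedom), with Benjamini-Hochberg adjustment over all genes and a threshold of 0.05. SE is the absolute log2 fold change over the root of F. Exons were tested with edgeR's diffSpliceDGE. Levels per length are CPM per kilobase of summed exons. A shared iCLIP site is a nucleotide listed, on 1 strand, in each of the 3 lists. Sites were assigned by the deposited exon tables on the strand of the gene. The tests were tried on simulated data in which the counts of some genes were raised. When the factor was 1.5, the unblocked test found 1% of the raised genes and the blocked test 1.5%. When it was 2, they found 36.5% and 35.5%, and when it was 4, 96% and 95%. Wrong calls numbered 0, 6 and 11 without the block and 0, 5 and 8 with it. A gene that did not pass is therefore not shown to be unchanged, least of all below a factor of 2.

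Deviations from the group means correlated at 0.318, 0.732 and 0.751 between same-numbered knockdown and control samples, each over the bound of 0.1. The numbers, from the titles, were therefore treated as pairs in the fit with the block. The main test kept group as its only term. Control 1 correlated at 0.494 with knockdown 2. The blocked fit has 2 residual degrees of freedom. No 2 libraries agreed within sampling noise. DESeq2 1.42.0, its size factors, no filter, the block and leaving out each replicate were alternatives. The 40 genes and the other lists were chosen with earlier results of these data known. Named are all 40 genes, with values per sample for those called in either design, the called other pathway genes or the 4 with the lowest p, and the 3 exons with the lowest p. CPM carries counting error in low genes, and intervals for it are not given.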

Additional observations from a re-analysis of the deposited data

How the results depend on the processing

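The 3 Wnt genes called depend on the design and on single libraries. The number of Wnt genes called was 2 with the size factors of DESeq2 or without the filter (WNT5A was lost in each), 5 with the DESeq2 test, 15 with the replicate block, 12 with the block and the size factors of DESeq2, and 0 to 7 when 1 library was left out. It was 9 without replicate 3 in both groups, which, like the block with those size factors, was added after seeing the data. Among all genes the number was 191 of 13856 with the size factors of DESeq2 and 202 of 17519 without the filter, against 232 in the main test. For the settings from the DESeq2 test on, the number among all genes was, in the same order, 798, 2398, 2278, 0 to 1028 and 1699. Among the other pathway genes it was 5, 12, 11, 0 to 4 and 11, against 1, and 0 with the size factors alone or without the filter. Among the targets it was 5 with the block, 3 with the block and size factors, 0 to 1 with a library left out and 2 without replicate 3, against 1. Without a library other than control 3 no Wnt gene was called.

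The log2 fold change of MSI1 was −1.97, and it was −1.92 with DESeq2 or with the block and its size factors, −1.97 with the block, −1.99 without replicate 3, all called, and −2.35 to −1.69 with 1 library left out. The median of the 35 genes ran from −0.21 to −0.028 with 1 library left out. Wnt genes with a shared iCLIP site numbered 5, or 8 when sites within 5 nucleotides were matched. They numbered 0 with authors' p-values of at most 0.05, and 7 to 19 with 1 list left out. The shares of all tested genes were, in the same order, 6.05%, 13.3%, 0.303% and 14.2% to 35.1%.

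With 1 library left out, the sign turned for 13 genes, none of them called. Their log2 fold changes ran from −0.088 to 0.38 for WNT5B, −0.10 to 0.65 for FZD2, −0.25 to 0.25 for FZD3, −0.12 to 0.011 for FZD7, −0.46 to 0.024 for FZD8, −0.080 to 0.61 for LRP5, −0.21 to 0.14 for LRP6, −0.21 to 0.43 for DVL1, −0.054 to 0.39 for DVL2, −0.27 to 0.31 for AXIN1, −0.22 to 0.14 for APC, −0.40 to 0.19 for TCF7L1 and −0.38 to 0.0071 for MYC. Without replicate 3 in both groups they were 0.17 for FZD3, 0.0033 for LRP6, −0.0013 for DVL1, −0.046 for AXIN1 and 0.0029 for APC. The cause was not tested. The filter on low counts kept 5 of the 40 genes out of the test, and without it 39 were tested.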

Other observations

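Some iCLIP sites lay on the strand opposite to a Wnt gene. TCF7 held 89 such sites in list 1, against 56 on its own strand, and 2 and 1 in lists 2 and 3. WNT3 held 4, 6 and 5 opposite sites in lists 1, 2 and 3, against 4, 0 and 3 on its own strand. Over all genes 95.7%, 87.7% and 90.6% of the sites assigned to a gene in lists 1, 2 and 3 were on the strand of the gene. These 2 genes were picked after their values were seen.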
